A study of Mus musculus with 6 samples.

Results

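The 10 genes described here encode the core of MHC class I antigen presentation: the classical heavy chains H2-K1 and H2-D1, the light chain B2m, the peptide transporter subunits Tap1 and Tap2, tapasin (Tapbp), the immunoproteasome subunits Psmb8, Psmb9 and Psmb10, and the transactivator Nlrc5. They were taken by gene symbol from the tables of all 6 libraries, and 10 of 10 were found among 38924 gene models. RNA was sequenced from ILT3+CD4+CD25+ T cells (3 samples) and from ILT3-CD4+CD25+ T cells (3 samples). ILT3 is a surface receptor that dampens immune cell activation. Both groups came from the same organs, spleen plus mesenteric lymph nodes, of wild-type (WT), syngeneic male and female mice aged 10 to 16 weeks that had no treatment. Neither the strain nor whether a sample was 1 animal or a pool is stated, so a p-value speaks for the spread among these samples, part of which may be technical.

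MHC class I molecules show peptides from proteins made inside the cell to CD8 T cells and are carried by nearly all nucleated cells. Proteasomes cut the proteins, and immunoproteasomes, in which Psmb8, Psmb9 and Psmb10 take the places of the constitutive catalytic subunits Psmb5, Psmb6 and Psmb7, are abundant in lymphocytes. TAP moves the peptides into the endoplasmic reticulum, where tapasin holds TAP and the empty heavy chain together until a peptide binds. NLRC5 raises transcription of these genes together with the RFX and NF-Y factors, and interferons raise them as well. T cells express the class I pathway at rest, which sets it apart from class II, which in mice belongs mainly to professional antigen-presenting cells.

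Of the 10 genes, 7 lie in the MHC region of chromosome 17 (GRCm38, coordinates from the deposited tables). These are Tapbp (33915899 to 33929288, plus strand), H2-K1 (33996017 to 34000333, minus), Psmb9 (34181988 to 34187764, minus), Tap1 (34187553 to 34197225, plus), Psmb8 (34197721 to 34201454, plus), Tap2 (34203527 to 34216321, plus) and H2-D1 (35262730 to 35267499, plus). B2m lies on chromosome 2 (122147686 to 122153083, plus), and Nlrc5 (94472763 to 94527272, plus) and Psmb10 (105935728 to 105938392, minus) on chromosome 8. Psmb9 and Tap1 stand head to head, and their models overlap by 212 bases.

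The promoter sequences below are shown because the heavy chain and B2m genes are known to share a conserved regulatory module, and because Tap1 and Psmb9 share a promoter region. They are RefSeq windows (GRCm38.p6) from 250 bases before to 50 bases after a start site, which the table holds for 8 of the 10 genes (2 windows for H2-K1, of which 1 is shown). Capitals mark matches on either strand to TGACG (the core of a CRE-like element, part of the module), CCAAT (the NF-Y box), GGGANNNCCC (an NF-kappaB-like pattern) and GAAANNGAAA (an interferon-response-like pattern).
H2-K1, chr17:34000298-34000597, minus strand: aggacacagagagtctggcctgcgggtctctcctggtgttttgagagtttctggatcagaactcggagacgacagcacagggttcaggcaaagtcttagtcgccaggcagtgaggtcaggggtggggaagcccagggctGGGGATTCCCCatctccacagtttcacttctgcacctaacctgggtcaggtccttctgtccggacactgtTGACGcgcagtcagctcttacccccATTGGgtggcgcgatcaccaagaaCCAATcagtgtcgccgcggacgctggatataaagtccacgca
H2-D1, chr17:35262844-35263143, plus strand: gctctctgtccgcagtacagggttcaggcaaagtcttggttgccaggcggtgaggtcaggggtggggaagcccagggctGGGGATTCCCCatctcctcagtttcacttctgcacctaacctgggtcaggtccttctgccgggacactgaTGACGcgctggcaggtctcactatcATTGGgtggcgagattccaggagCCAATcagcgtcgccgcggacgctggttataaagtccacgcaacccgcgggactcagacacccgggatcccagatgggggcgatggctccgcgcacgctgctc
B2m, chr2:122147437-122147736, plus strand: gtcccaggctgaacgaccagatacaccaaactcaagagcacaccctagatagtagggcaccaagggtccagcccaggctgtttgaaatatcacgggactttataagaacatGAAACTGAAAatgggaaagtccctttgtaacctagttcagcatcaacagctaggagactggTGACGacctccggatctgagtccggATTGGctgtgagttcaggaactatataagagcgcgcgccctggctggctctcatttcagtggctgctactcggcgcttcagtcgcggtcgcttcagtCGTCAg
Tap1, chr17:34187306-34187605, plus strand: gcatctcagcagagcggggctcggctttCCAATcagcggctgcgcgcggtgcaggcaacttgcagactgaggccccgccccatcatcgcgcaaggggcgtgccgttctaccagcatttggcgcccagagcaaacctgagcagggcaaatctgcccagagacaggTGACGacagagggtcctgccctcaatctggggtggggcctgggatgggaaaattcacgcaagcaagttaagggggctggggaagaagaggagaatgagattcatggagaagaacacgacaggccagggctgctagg
The first 275 bases of the Tap1 window are, read on the other strand, also in the Psmb9 window. H2-K1 and H2-D1 were 88.3% identical over 239 aligned columns, and both held, in the same order, an NF-kappaB-like match (2 overlapping matches), TGACG, and a CCAAT box on each strand. B2m held TGACG and CCAAT with GAAANNGAAA upstream of them. Of the 8 genes with a window, 6 held CCAAT, 5 TGACG, 2 GGGANNNCCC, 1 GAAANNGAAA and 1 (Psmb8) TTCNNNGAA, a palindromic pattern that was also searched. The CCAAT and TGACG matches of Tap1 and Psmb9 are the same sites read on opposite strands, and they are counted for both genes. Over all 32851 windows of this length, these were found in 37.4%, 20.8%, 5.55%, 3.44% and 8.30%.

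Before the members are compared, 3 facts on the libraries bear on them. Lilrb4, which encodes ILT3, averaged 332 ± 65.8 CPM (the read count relative to the TMM-scaled library size) in the ILT3+ group, against 4.46 ± 1.29 CPM in the ILT3- group (SD, n = 3 each), so the sort marker goes with the labels. Depth was 10768217 to 11960289 total gene reads in ILT3+ libraries and 9334370 to 13648274 in ILT3- libraries, and members had 756 to 64531 reads per library. Samples numbered 1 stood apart from numbers 2 and 3 in both groups, on a second principal component that held 31.95% of the variance. Genes of the sorted cell type were read in every library. Cd3e, a chain of the CD3 complex, ranged over 604 to 843 CPM in ILT3+ libraries and 619 to 917 CPM in ILT3- libraries, and Foxp3, the factor of regulatory T cells, over 758 to 1003 CPM in ILT3+ libraries and 676 to 1123 CPM in ILT3- libraries.

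Class I genes were among the more abundant transcripts of both groups, and none of the 10 passed the test for a difference. All 10 had a positive log2 fold change, from 0.13 for Nlrc5 to 0.42 for Psmb9, that is means 1.10-fold to 1.34-fold higher in ILT3+ cells. In bulk samples fewer cells of a type and less RNA per cell cannot be told apart. In edgeR's quasi-likelihood test 0 of 10 passed an adjusted p of 0.05, against 2.31% of the 13694 genes tested (1.96% called higher in ILT3+ cells). The count was also 0 of 10 on unique gene reads and on total exon reads, where 2.68% and 2.05% of genes were called. None of the 10 had an unadjusted p under 0.05, against 13.8% of all tested genes, and 0 were called by DESeq2 or limma voom, which called 6.94% and 2.40%. A positive value was found for 10 of 10 members, against 48.0% of tested genes. Their median log2 fold change was 0.23, against -0.02 over all tested genes. Among the 2971 tested genes with a mean of at least 80 CPM, a bound chosen after the values were seen and met by all 10 members, 41.2% were positive and the values ran from -0.59 at the 10th to 0.38 at the 90th percentile.

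**Figure D1:**
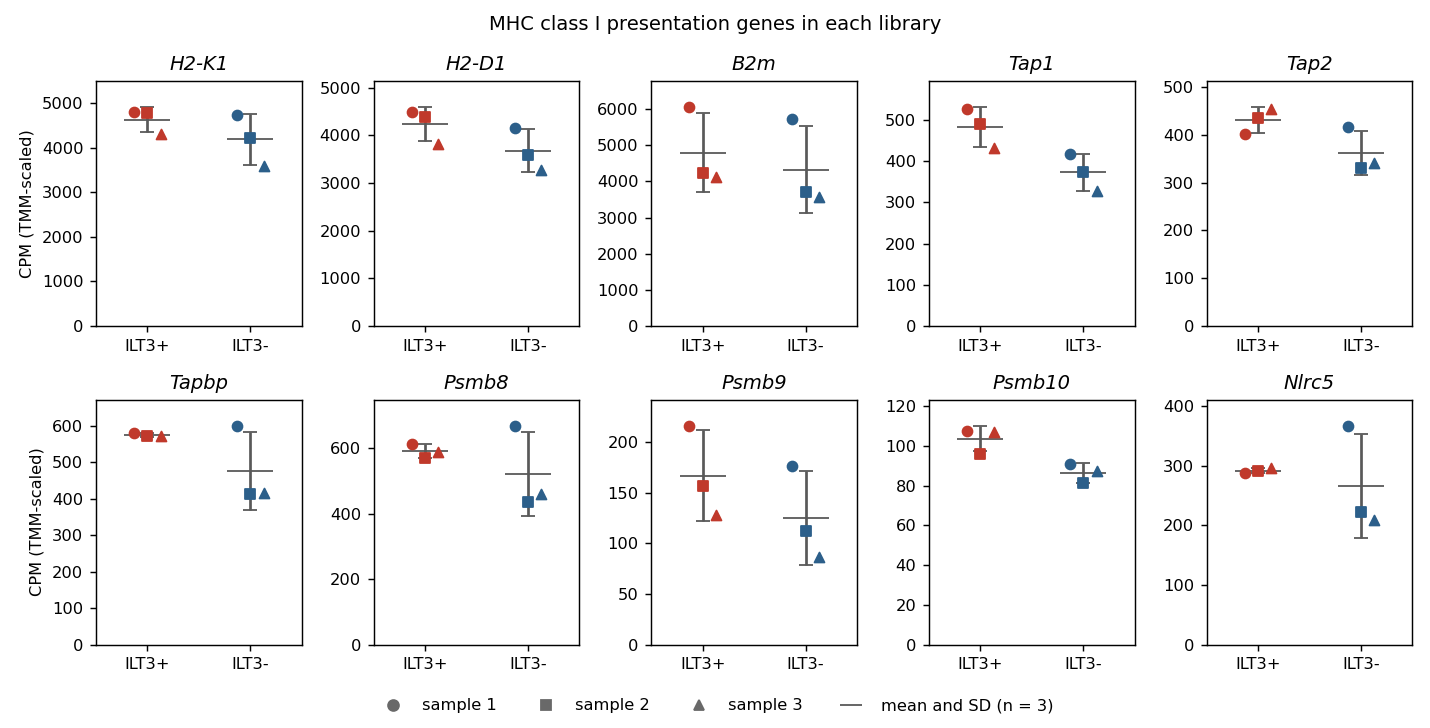
CPM of each class I gene (y axis, linear from 0) in the 3 ILT3+ and 3 ILT3- libraries, with marker shape for the sample number, and mean and SD as bars. The groups overlap for 8 of the 10 genes, and separate for Tap1 and Psmb10.

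The heavy chains came first in abundance with B2m. H2-K1 had 4805, 4771 and 4312 CPM in ILT3+ samples 1, 2 and 3, against 4741, 4222 and 3594 CPM in ILT3- samples 1, 2 and 3. H2-D1 had 4487, 4389 and 3828 CPM in ILT3+ samples, against 4163, 3598 and 3267 CPM in ILT3- samples. For both genes 2 of the 3 ILT3+ values lay above every ILT3- value, and the groups overlapped through ILT3- sample 1. The log2 fold changes were 0.15 for H2-K1 (SE 0.19, adjusted p = 0.823, edgeR) and 0.20 for H2-D1 (SE 0.19, adjusted p = 0.736, edgeR), with 95% intervals of -0.29 to 0.58 and -0.23 to 0.64. The ratio of H2-D1 to H2-K1 reads was 0.934, 0.920 and 0.888 in ILT3+ samples, against 0.878, 0.852 and 0.909 in ILT3- samples, so the 2 loci kept nearly the same proportion in every library. Of the reads of H2-K1 92.2% were uniquely placed, and of those of H2-D1 89.1%. Heavy chain genes are near-identical and highly polymorphic, so some reads may belong to a copy, and reads of a strain that differs from the reference may be missed.

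B2m, the invariant light chain without which heavy chains do not reach the surface, varied more between sample numbers than between groups. It had 6054, 4226 and 4120 CPM in ILT3+ samples 1, 2 and 3, and 5723, 3711 and 3557 CPM in ILT3- samples 1, 2 and 3. Both samples numbered 1 were high, at 1.45 times the mean of numbers 2 and 3 in ILT3+ and 1.57 times in ILT3- cells. The log2 fold change was 0.15 (SE 0.26, 95% interval -0.46 to 0.76, adjusted p = 0.883, edgeR), and its sign turned without ILT3+ sample 1 (-0.05). Without both samples numbered 1 it was 0.23. Only 15.5% of B2m reads were uniquely placed. The model of Patl2, on the minus strand, covers all 5398 bases of B2m, and in all 6 libraries the unique exon reads of B2m were exactly its unique exon-exon junction reads. On unique reads B2m averaged 754 CPM in ILT3+ cells, against 656 CPM in ILT3- cells.

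The peptide transporter and tapasin had higher means in ILT3+ cells, with differences within the error of the test. Tap1 had 527, 489 and 432 CPM in ILT3+ samples 1, 2 and 3, against 418, 373 and 327 CPM in ILT3- samples 1, 2 and 3. The lowest ILT3+ value lay above the highest ILT3- value. Groups that did not overlap, with ILT3+ higher, were found for 2 of 10 members and for 11.4% of tested genes (20.2% in either direction). Tap1 had the smallest p of the 10, with a log2 fold change of 0.37 (SE 0.18, 95% interval -0.04 to 0.79, adjusted p = 0.416, edgeR). Tap2, its partner in the transporter, had 401, 435 and 455 CPM in ILT3+ samples, against 416, 331 and 342 CPM in ILT3- samples. ILT3+ sample 1 was below ILT3- sample 1, while the other two ILT3+ samples were above all ILT3- samples. The log2 fold change of Tap2 was 0.25 (SE 0.17, 95% interval -0.15 to 0.65, adjusted p = 0.624, edgeR). Tapbp had 581, 573 and 573 CPM in ILT3+ samples, with an SD of 4.41 CPM, and 601, 414 and 417 CPM in ILT3- samples, with an SD of 107 CPM. Its groups overlapped only through ILT3- sample 1, the highest of the 6 (log2 fold change 0.27, SE 0.20, 95% interval -0.19 to 0.73, adjusted p = 0.653, edgeR).

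Among the immunoproteasome subunits, Psmb9 had the largest fold change of the 10 members with all 6 libraries, and the widest interval. It had 216, 156 and 128 CPM in ILT3+ samples 1, 2 and 3, against 176, 112 and 86.2 CPM in ILT3- samples 1, 2 and 3, so that sample 1 was the highest of each group. The log2 fold change was 0.42 (SE 0.31, 95% interval -0.29 to 1.13, adjusted p = 0.645, edgeR). Leaving out ILT3+ sample 1 gave 0.19, leaving out ILT3- sample 1 gave 0.75, and leaving out ILT3- sample 3 gave 0.22. Tap1 had the larger value without ILT3+ sample 1 (0.31), without ILT3- sample 2 (0.38, against 0.35 for Psmb9) and without ILT3- sample 3 (0.29). Psmb9 lies next to Tap1, and the ratio of their CPM was 0.411, 0.320 and 0.297 in ILT3+ samples, against 0.422, 0.300 and 0.263 in ILT3- samples, so it followed the sample number. Psmb8 had 612, 570 and 589 CPM in ILT3+ samples, between the 668 CPM of ILT3- sample 1 and the 435 and 459 CPM of ILT3- samples 2 and 3. Its log2 fold change was 0.18 (SE 0.21, 95% interval -0.30 to 0.67, adjusted p = 0.801, edgeR). Psmb10, the least abundant member by CPM, had 108, 96.1 and 107 CPM in ILT3+ samples, all above the 90.8, 81.1 and 87.4 CPM of the ILT3- samples. The log2 fold change of Psmb10 was 0.26 (SE 0.16, 95% interval -0.10 to 0.62, adjusted p = 0.553, edgeR), and 0.18 on unique gene reads. Only 40.3% of Psmb8 reads were uniquely placed, and Gm20496 overlaps its model by 2139 bases on the other strand. Psmb10 had a lower unique share, with 36.3 CPM on unique reads in ILT3+ cells against 31.9 CPM in ILT3- cells, and its whole model of 2665 bases lies inside Gm16156 on the other strand.

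Nlrc5, the transactivator of the class I genes, had 288, 292 and 297 CPM in ILT3+ samples 1, 2 and 3, and 367, 223 and 209 CPM in ILT3- samples 1, 2 and 3. The ILT3+ samples were nearly equal (SD 4.71 CPM), and the ILT3- samples lay on both sides of them (SD 87.7 CPM). The log2 fold change was 0.13 (SE 0.24, 95% interval -0.42 to 0.69, adjusted p = 0.884, edgeR). It was 0.43 without ILT3- sample 1 and -0.01 without ILT3- sample 3. Nlrc5 was the member with the most intronic reads, 26.2% in ILT3+ and 28.7% in ILT3- cells, against 0.0857% to 10.0% in ILT3+ and 0.161% to 11.9% in ILT3- cells for the others. By the root mean square difference of log2 CPM centred on each gene over the 6 samples, Myo1g (0.06), Kcnip4 (0.07) and Ubac2 (0.08) were the nearest of the 9123 genes compared. Psmb8 (0.09) and Tapbp (0.10) were the nearest members, with 5 and 9 genes outside the class I list nearer than they were.

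**Figure D2:**
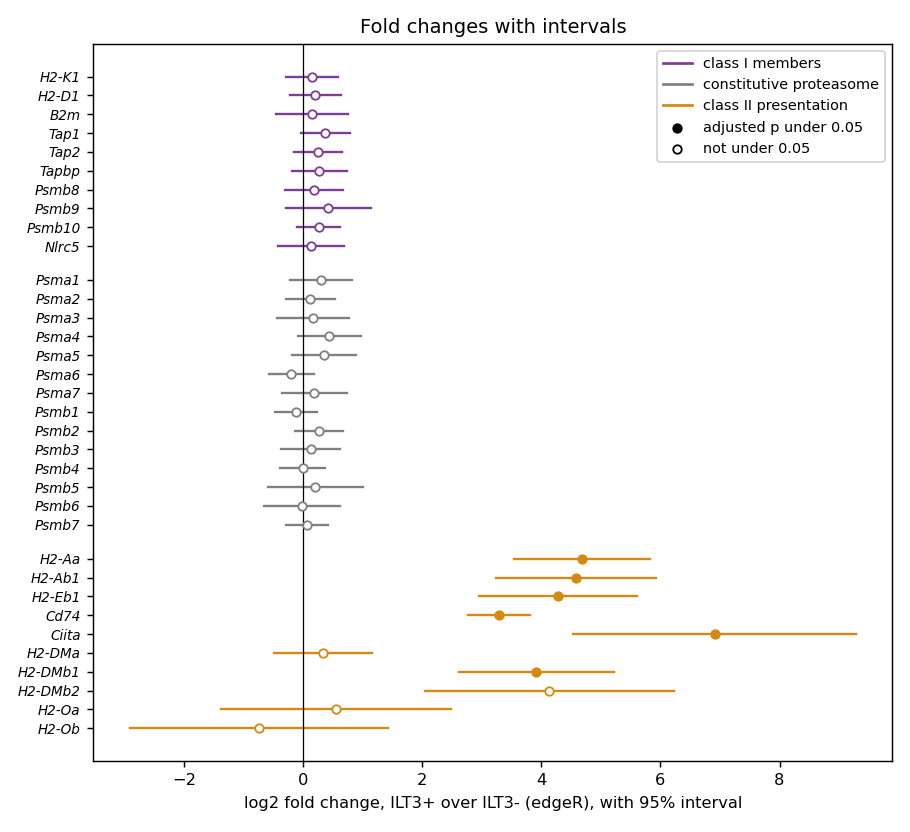
Log2 fold change of ILT3+ over ILT3- cells (x axis, edgeR on total gene reads) with 95% intervals for the class I members, the constitutive proteasome and class II genes, filled where the adjusted p was under 0.05. All 10 class I intervals include 0, and only that of Psmb9 reaches above 1. The point of Ciita rests on 2 reads in ILT3- libraries.

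The intervals limit how large a difference these samples allow. The upper bounds were 1.49-fold for H2-K1, 1.55-fold for H2-D1, 1.69-fold for B2m, 1.73-fold for Tap1 and 2.19-fold for Psmb9, and the other members lay between 1.54-fold and 1.66-fold. The lower bounds ran from 0.726-fold for B2m to 0.972-fold for Tap1. These bounds come from the fit without the sample number, and they do not show that the groups were alike. With the sample number as a block the 95% intervals were narrower, and those of Tap1 (0.14 to 0.61), Psmb9 (0.15 to 0.75) and H2-D1 (0.02 to 0.39, all on the log2 scale) lay above 0. They are intervals for single genes, and none of the 10 passed the adjustment over all genes in that fit either.

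Compared within sample numbers, the members split numbers 2 and 3 from number 1. All 10 were higher in ILT3+ than in ILT3- cells within number 2 (median log2 ratio 0.39) and all 10 within number 3 (0.38), against 31.7% of tested genes higher within both numbers. Within number 1, 6 of 10 were higher (median 0.05), against 50.4% of tested genes (median 0.006). There Nlrc5 (-0.35), Psmb8 (-0.13), Tap2 (-0.05) and Tapbp (-0.05) were lower in the ILT3+ sample. Higher within all 3 numbers were H2-K1, H2-D1, B2m, Tap1, Psmb9 and Psmb10, that is 6 of 10 members against 22.4% of tested genes. Within numbers 1, 2 and 3 the log2 ratios of Psmb10 (0.24, 0.25 and 0.29) and Tap1 (0.33, 0.39 and 0.40) spread the least of the 10, and those of Nlrc5 (-0.35, 0.38 and 0.51) the most. With the sample number as a block 0 of 10 members were called, against 6.81% of tested genes, and the smallest adjusted p values were 0.0775 for Tap1 and 0.0908 for Psmb9 (edgeR). Without both samples numbered 1, the log2 fold changes ran from 0.23 for B2m to 0.55 for Psmb9, and 0 of 10 members were called, against 5.64% of tested genes.

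**Figure D3:**
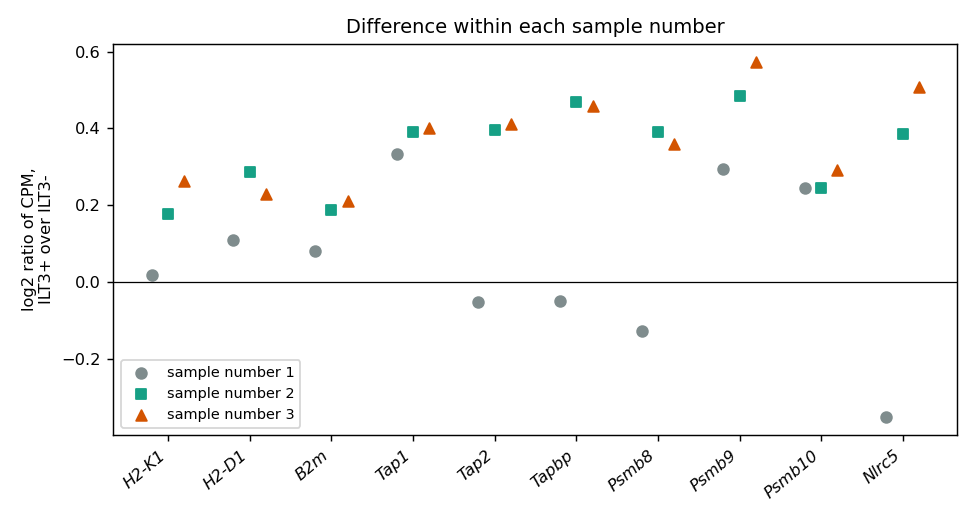
Log2 ratio of CPM, ILT3+ over ILT3- (y axis), for each class I gene within sample numbers 1, 2 and 3 (marker shape and colour). All points of numbers 2 and 3 lie above 0, and 4 of the 10 points of number 1 lie below it.

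Immunoproteasome subunits were set against the constitutive subunits they replace, as a ratio within each library, which does not depend on library scaling. The ratios are of total gene reads and were not scaled to exon length, so their size does not give the proportion of transcripts. As exon reads per kilobase of exon, scaled to library depth, Psmb8 averaged 216 in ILT3+ and 190 in ILT3- cells. Psmb5 averaged 209 and 181 on that scale. Psmb8 to Psmb5 was 4.69, 2.90 and 2.61 in ILT3+ samples 1, 2 and 3, against 7.62, 2.40 and 2.17 in ILT3- samples 1, 2 and 3. Psmb9 to Psmb6 was 1.81, 0.904 and 0.675 in ILT3+ samples, against 1.61, 0.638 and 0.423 in ILT3- samples. In both ratios the sample numbered 1 was the highest of its group. There Psmb5 was at 0.619 times and Psmb6 at 0.658 times the mean of numbers 2 and 3 in ILT3+ cells, and at 0.447 and 0.577 times in ILT3- cells. The log2 difference of ILT3+ minus ILT3- was -0.05 for Psmb8 to Psmb5 (exact permutation p = 1, two-sided) and 0.45 for Psmb9 to Psmb6 (exact permutation p = 0.5, two-sided). Psmb10 to Psmb7 was 0.872, 0.719 and 0.776 in ILT3+ samples, all above the 0.679, 0.679 and 0.704 of ILT3- samples. Its log2 difference was 0.19 (exact permutation p = 0.1, two-sided, the smallest that 3 against 3 samples allow, and 0.3 after Benjamini-Hochberg adjustment over the 3 ratios). On unique gene reads it was 0.06 and the groups overlapped (exact permutation p = 0.8).

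**Figure D4:**
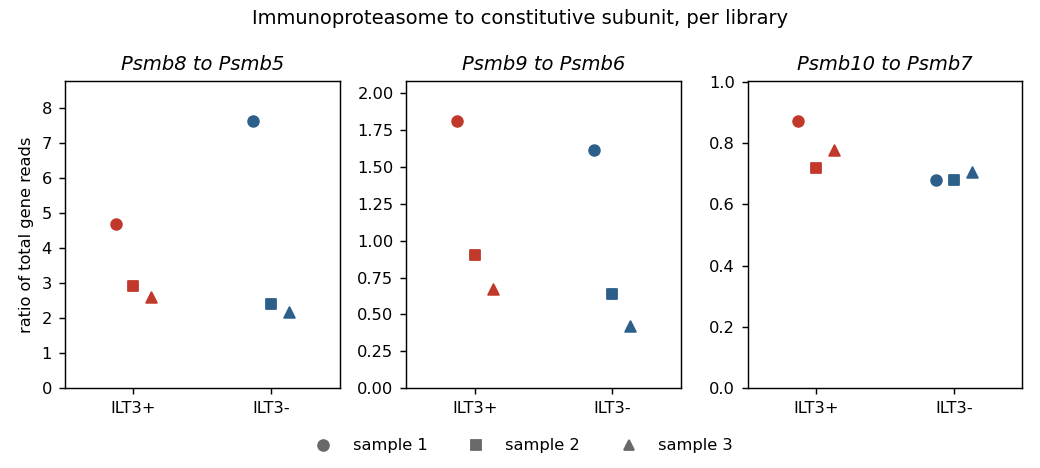
Ratio of total gene reads, not scaled to exon length, of each immunoproteasome subunit to its constitutive counterpart (y axis, linear from 0). Points are ILT3+ and ILT3- libraries, with marker shape for the sample number. Sample 1 is the highest point of both groups in the Psmb8 and Psmb9 panels, and the groups separate in the Psmb10 panel.

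Levels of different genes were compared as exon reads per kilobase of annotated exon, scaled to library depth (RPKM). The order of the mean levels was the same in both groups: B2m, H2-K1, H2-D1, Psmb8, Tapbp, Tap2, Tap1, Psmb10, Psmb9 and Nlrc5. This order depends on the annotated exon length, which was 3659 bases for Psmb9 (6 annotated transcripts) and 1270 bases for Psmb10 (1 transcript). By mean CPM Psmb9 was above Psmb10, at 167 against 104 in ILT3+ and 125 against 86.4 in ILT3- cells. B2m was at 5384 ± 1163 RPKM in ILT3+ and 4792 ± 1234 RPKM in ILT3- cells (SD, n = 3). H2-K1 was at 1709 ± 91.5 and H2-D1 at 1624 ± 136 RPKM in ILT3+ cells, and at 1523 ± 173 and 1401 ± 160 RPKM in ILT3- cells (SD, n = 3). The ranges of these neighbours overlapped in both groups, but H2-K1 was above H2-D1 within every library. Psmb8 followed at 216 ± 7.75 RPKM in ILT3+ and 190 ± 46.9 RPKM in ILT3- cells, and Tapbp at 168 ± 1.47 RPKM in ILT3+ and 138 ± 30.7 RPKM in ILT3- cells (SD, n = 3). Tap1 and Psmb10 overlapped in both groups, at 86.4 ± 8.27 and 79.6 ± 5.22 RPKM in ILT3+ cells and 66.5 ± 8.84 and 65.6 ± 3.58 RPKM in ILT3- cells. Nlrc5 was the lowest at 28.3 ± 0.789 RPKM in ILT3+ and 24.8 ± 7.96 RPKM in ILT3- cells (SD, n = 3). The ranges of Psmb8 and Tapbp, and of Psmb9 and Nlrc5, overlapped in ILT3- cells alone. Within every library Psmb8 was above Tapbp, and Psmb9 above Nlrc5. The class II invariant chain Cd74, on the same scale, was at 937 ± 178 RPKM in ILT3+ and 95.2 ± 8.93 RPKM in ILT3- cells (SD, n = 3), below both heavy chains in each group.

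The rest of the class I pathway was described by lists written with earlier results of these data known. Of 12 tested further heavy chains and class I-like genes 0 were called, with a median log2 fold change of 0.05. The Qa-2 genes H2-Q7 and H2-Q6 were the most abundant of them, with means of 1124 ± 109 and 943 ± 73.9 CPM in the ILT3+ group, against 1020 ± 158 and 880 ± 228 CPM in the ILT3- group (SD, n = 3). H2-T10 had the smallest p of this list (log2 fold change -0.69, adjusted p = 0.387, edgeR, 11.3% of its reads uniquely placed), followed by H2-T23, the Qa-1 gene (0.39, adjusted p = 0.552). Of 15 tested loading and trimming genes 0 were called, with a median of 0.17. Calnexin (Canx), the chaperone that folds new heavy chains, had 401, 345 and 366 CPM in ILT3+ samples, all above the 208, 236 and 314 CPM of ILT3- samples (log2 fold change 0.55, adjusted p = 0.272, edgeR). Ugcg was also on that list, though it is known to make the glycolipid glucosylceramide and is not a peptide loading or trimming gene. It had the smallest p there, with a log2 fold change of -1.27 (adjusted p = 0.105, edgeR, and 0.00811 with the sample number as a block).

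Proteasome genes outside the 3 immunoproteasome subunits were not called either. The counts were 0 of 9 for the PA28 activator and assembly factors (median 0.01), 0 of 14 for the constitutive core particle (median 0.15) and 0 of 18 for the 19S regulatory particle (median 0.05). Those at an unadjusted p under 0.05 were 1, 0 and 0, against 13.8% of all tested genes. The one was Psme2, a PA28 subunit that interferon induces, with 278, 328 and 340 CPM in ILT3+ samples, all above the 205, 231 and 259 CPM of ILT3- samples (log2 fold change 0.44, adjusted p = 0.320, edgeR, 32.3% of its reads uniquely placed). The next smallest p of that list was that of Pomp, the assembly chaperone of the proteasome (0.36, adjusted p = 0.631). In the core particle Psma4 and Psmb2 had the smallest p (log2 fold changes 0.44 and 0.26, adjusted p = 0.470 and 0.604, edgeR), and in the regulatory particle Psmc1 and Psmc2 (0.29 and 0.26, adjusted p = 0.717 and 0.727).

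Among regulators of class I transcription, 0 of 16 were called (median -0.05). Nfkb1, the p50 subunit of NF-kappaB, had a log2 fold change of -0.46 (adjusted p = 0.407, edgeR). Of 9 interferon receptor and kinase genes 0 were called (median -0.38, 4 at an unadjusted p under 0.05). The type I interferon receptor chains Ifnar1 and Ifnar2 had log2 fold changes of -0.60 and -0.53 (adjusted p = 0.123 and 0.196, edgeR), with every ILT3+ value below every ILT3- value. With the block the adjusted p of Ifnar1 was 0.0276 and that of Ifnar2 0.0520. Of 14 tested interferon-gamma induced genes 1 rose, against 1.96% of all tested genes, the chemokine gene Cxcl10, with 66.5, 37.5 and 40.9 CPM in ILT3+ samples against 3.36, 1.89 and 3.85 CPM in ILT3- samples (log2 fold change 3.99, SE 0.41, adjusted p = 0.00663, edgeR). Only 7.92% of its reads were uniquely placed. All 14 had positive log2 fold changes, against 48.0% of all tested genes, with a median of 0.84. With the block 3 were called, against 6.81% of all tested genes, namely Cxcl10, the GTPase gene Gbp7 (adjusted p = 0.0234) and Iigp1 (adjusted p = 0.0253).

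**Figure D5:**
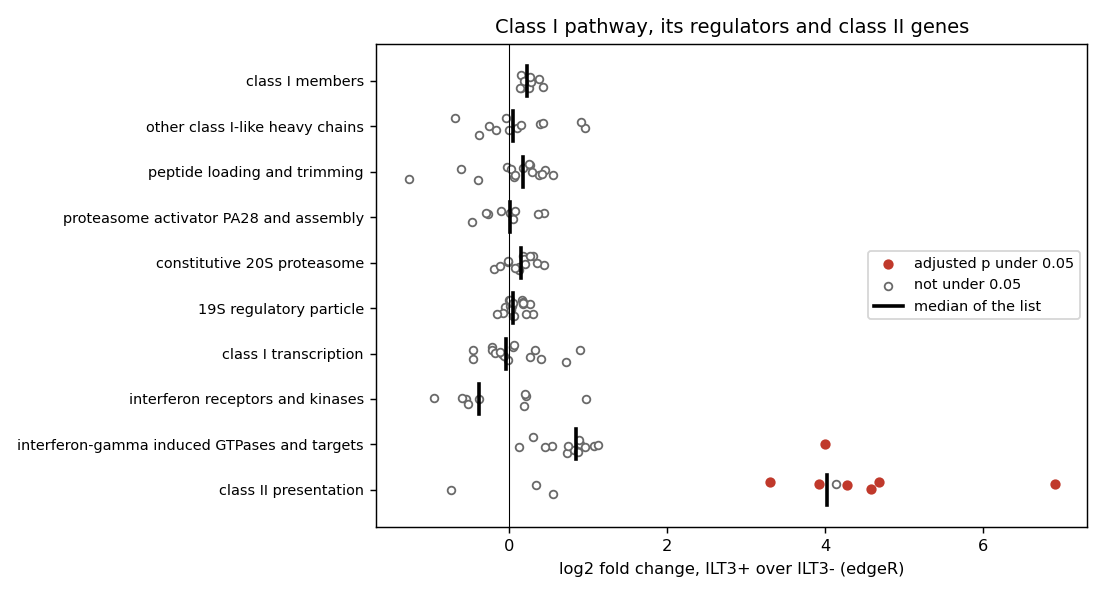
Log2 fold change of ILT3+ over ILT3- cells (x axis, edgeR) for every tested gene of the class I members, of 8 lists of related genes and of class II presentation, filled where the adjusted p was under 0.05, with a bar at each median. The class I members lie between 0.13 and 0.42, and the filled points are Cxcl10 and 6 class II genes. The rightmost point, Ciita, rests on 2 reads in ILT3- libraries.

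Many class II presentation genes share the MHC region, and the RFX and NF-Y factors, with class I. Of 10 tested class II genes 6 rose in ILT3+ cells, against 1.96% of all tested genes, namely Cd74, H2-Aa, H2-Ab1, H2-Eb1, H2-DMb1 and the transactivator Ciita. Cd74, the invariant chain, had 1724, 1230 and 1148 CPM in the ILT3+ group, against 137, 150 and 131 CPM in the ILT3- group (log2 fold change 3.29, SE 0.23, adjusted p = 0.000946, edgeR). H2-Ab1 had 362, 196 and 190 CPM in ILT3+ samples, against 19.8, 7.07 and 4.87 CPM in ILT3- samples (log2 fold change 4.58, SE 0.58, adjusted p = 0.0113, edgeR). The log2 fold changes of H2-Aa, H2-Eb1 and H2-DMb1 were 4.68, 4.28 and 3.92 (adjusted p = 0.00724, 0.0127 and 0.0158, edgeR). Ciita (adjusted p = 0.0176), the counterpart of Nlrc5 for class II, had 282 reads in the 3 ILT3+ libraries and 2 in the 3 ILT3- libraries, and Nlrc5 had 2842 to 3724 reads in each of the 6. The difference between the pathways was not itself tested.

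Markers of other cell types also differed between the libraries. Of 9 macrophage and monocyte genes 6 were tested and 0 called, and their summed level was 27.3 to 677 CPM in ILT3+ and 8.43 to 21.5 CPM in ILT3- libraries. The highest sum was that of ILT3+ sample 1, where Csf1r, the receptor that defines macrophages, had 266 CPM, against 2.25 and 0.399 CPM in ILT3+ samples 2 and 3 and 0.218 to 3.24 CPM in ILT3- samples. C1qb and Emr1, which also mark macrophages, were called with the sample number as a block (adjusted p = 0.0146 and 0.0271, edgeR) and not without it (0.151 and 0.248). Of 6 conventional dendritic cell genes 3 were tested and 0 called, with sums of 18.7 to 49.3 CPM in ILT3+ and 3.97 to 13.4 CPM in ILT3- libraries. The defining genes Clec9a and Cd209a had no read in ILT3+ libraries and 1 and 0 reads in ILT3- libraries, and Itgax had no ILT3- read. Zbtb46 had the smallest p of this list (log2 fold change 1.74, adjusted p = 0.337, edgeR, and 0.0386 with the block), followed by Xcr1 (adjusted p = 0.540). Of 5 B cell genes, 4 were tested and 0 called, and their sum was 28.6 to 64.5 CPM in ILT3+ and 20.7 to 29.8 CPM in ILT3- libraries. Cd79b, a chain of the B cell receptor, held 905 reads in ILT3+ against 502 in ILT3- libraries.

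All 4 red cell genes were tested and 2 rose, against 1.96% of all tested genes, the alpha-globin genes Hba-a1 and Hba-a2 (adjusted p = 0.0324 and 0.0308, edgeR), with sums of 41.7 to 202 CPM in ILT3+ and 0.550 to 5.05 CPM in ILT3- libraries. Of 4 plasmacytoid dendritic cell genes 3 were tested and 0 called (140 to 207 CPM in ILT3+, 64.2 to 87.6 CPM in ILT3-), most of it Ccr9 and Bst2, an interferon-induced gene (adjusted p = 0.0558, edgeR, and 0.0153 with the block). None of 2 CD8 T cell genes was called (13.8 to 17.8 CPM in ILT3+, 11.5 to 30.8 CPM in ILT3-), nor any of 7 T cell genes (3601 to 4850 CPM in ILT3+, 3552 to 5565 CPM in ILT3-). Of these Trbc2, a T cell receptor constant region, had the smallest p (log2 fold change -0.64, adjusted p = 0.260, edgeR, and 0.0123 with the block). The 3 NK cell genes were not tested (0.482 to 30.6 CPM in ILT3+, 0.145 to 7.21 CPM in ILT3-). The class I members summed to 14840 to 18080 CPM in ILT3+ and 12350 to 17360 CPM in ILT3- libraries. The part of other cell types in the class I values was not tested. Without ILT3+ sample 1, 0 of 10 members were called, against 1.80% of tested genes, and the log2 fold changes ran from -0.05 for B2m to 0.31 for Tap1. That fit kept ILT3- sample 1, where B2m was the highest of its group. Without both samples numbered 1, B2m was at 0.23.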

How the data were processed

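Per the labels' protocols, SmartSeq V2 turned RNA into cDNA and Nextera XT made the sequencing libraries. The build GRCm38 comes from the submitters' processing notes. For aligner, counter, annotation and strand use: not given in the sources used here. The authors deposited 1 table per sample, which per the file headers holds counts for each gene, its exons and its introns, over all reads and over unique ones. The annotated exon lengths in the same deposited tables served for RPKM computed here.

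Total gene reads, which include introns (24.0% to 28.3%) and reads not uniquely placed, were tested with edgeR 4.0.16 in R 4.3.3: TMM factors, default filter (minimum count 10, total 15), robust quasi-likelihood fit on group, Benjamini-Hochberg adjustment over all 13694 genes. All 10 members passed the filter. SE is the log2 fold change over the root of F. Alternatives used other counted reads, scalings, filters, DESeq2 1.42.0, limma 3.58.1 voom, a block and fewer samples. Libraries differed by more than sampling noise in every pair (chi-square per degree of freedom at least 18.3). Deviations from the group means of same-numbered samples correlated at 0.40, 0.26 and 0.27, so the numbers, which the labels do not explain, were taken to pair the samples. Across groups, numbers 2 and 3 also correlated with each other, at 0.12 and 0.16. Number 1 correlated with numbers 2 and 3 at -0.305 to -0.2585. The pairing thus set number 1 apart more clearly than it told number 2 from number 3. The fit was checked on simulated data.

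The members and lists were chosen with earlier results of these data known. All members were named, and of each list the called genes, or the 2 of smallest p, and of marker lists also abundant members. Outside that rule, H2-Q6, H2-Q7, Gbp7, Iigp1 and marker genes at 0 were named after their values were seen. Of 176 list symbols 172 were found by name, 2 by RefSeq synonym and 2 were not matched. Some members of these lists are not reported here by name.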

Additional observations from a re-analysis of the deposited data

How the results depend on the processing

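None of the 10 class I genes was called under any of 18 alternatives. Of 180 alternative log2 fold changes 178 were positive. With 1 library left out, B2m ran from -0.051 (without ILT3+ replicate 1) to 0.40, and Nlrc5 from -0.011 (without ILT3- replicate 3) to 0.43. The smallest adjusted p was 0.0775. Counts of all called genes moved far more: 316 in the test as reported, 951 with DESeq2, 932 with the replicate block, 825 with the block on unique gene reads (chosen after the data were seen), 786 without both samples numbered 1, 204 on unique exon reads, and 31 to 322 when 1 library was left out, where dropping ILT3+ sample 2 gave 53, ILT3+ sample 3 gave 57, ILT3- sample 2 gave 67 and ILT3- sample 3 gave 31. The cause was not tested.

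The log2 difference of the ratio of Psmb8 to Psmb5 changed sign with the samples used. It was 0.27 without both samples numbered 1, and -0.38 to 0.53 with 1 library left out, with 0.53 without ILT3- sample 1. That of Psmb9 to Psmb6 stayed positive, at 0.03 to 0.99 with 1 library left out, and that of Psmb10 to Psmb7 at 0.12 to 0.26. Within sample numbers (the replicate block), exact permutation p values were 1, 0.25 and 0.25 for the 3 ratios, where 0.25 is the smallest that 3 pairs allow. The block changed no call of a class I gene. Each member had at least 756 reads in every library.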
